A study of Homo sapiens with 3 samples.

Results

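Expression of 10 microtubule genes was followed in IMR-90 cells 24 h after transfection of 1 of 3 siRNAs. The genes were chosen by name, with earlier results of these data known. The list holds the alpha-tubulins TUBA1A, TUBA1B and TUBA1C, the beta-tubulins TUBB, TUBB2A, TUBB3, TUBB4B and TUBB6, and the microtubule regulators STMN1 and MAP1B. They are 10 of 19775 genes that had a probe set of their own on the array, and all 10 were among the 12307 genes that passed a filter on low signal (a mean log2 signal at or above the median of all probe sets). IMR-90 is a line of human fetal lung fibroblasts. A pair of siRNAs, SETD8 siRNA 1 and SETD8 siRNA 2, targeted SETD8, the methyltransferase of histone H4 lysine 20 now listed as KMT5A. The control siRNA was labelled GL3. All 3 groups were grown in DMEM-F12 with 10% serum and transfected with RNAiMAX, and each siRNA was represented by 1 array. There is thus no replicate error and no test, and the only spread that can be given is that between probe sets of 1 gene on the same arrays.

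Microtubules are hollow polymers of alpha- and beta-tubulin dimers that form the interphase network and the mitotic spindle. Several genes encode near-identical tubulins, called isotypes, which differ mostly in their acidic tails and in the tissues that use them. Cells also adjust tubulin mRNA to the pool of free dimers, a feedback known as tubulin autoregulation, in which TTC5 recognises the nascent tubulin chain. STMN1, stathmin, binds free dimers and destabilises microtubules, and it is switched off by phosphorylation when cells enter mitosis. MAP1B coats and stabilises microtubules and is best known from growing axons. STMN1 therefore opposes the stabilising role that MAP1B has.

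The promoters of 4 members are shown because they stand for the patterns described below. By brightest probe set, STMN1 and TUBB had the lowest signal relative to control over both siRNAs. TUBB4B was lower mainly with SETD8 siRNA 1, and TUBA1B stayed close to control. Each line gives the 250 bases before a RefSeq transcription start of GRCh38.p14 (the first of 3 listed for STMN1 and of 2 for TUBB), read 5′ to 3′ on the strand of the gene, with matches to any of 3 searched motifs in capitals. The positions are chr1:25906420-25906669 on the minus strand for STMN1, chr6:30720102-30720351 on the plus strand for TUBB, chr9:137241037-137241286 on the plus strand for TUBB4B and chr12:49131396-49131645 on the minus strand for TUBA1B.
STMN1: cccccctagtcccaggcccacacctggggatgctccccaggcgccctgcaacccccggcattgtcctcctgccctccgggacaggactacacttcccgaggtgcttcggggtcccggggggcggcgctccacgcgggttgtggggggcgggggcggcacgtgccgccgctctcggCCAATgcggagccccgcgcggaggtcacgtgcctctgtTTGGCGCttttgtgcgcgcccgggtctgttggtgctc
TUBB: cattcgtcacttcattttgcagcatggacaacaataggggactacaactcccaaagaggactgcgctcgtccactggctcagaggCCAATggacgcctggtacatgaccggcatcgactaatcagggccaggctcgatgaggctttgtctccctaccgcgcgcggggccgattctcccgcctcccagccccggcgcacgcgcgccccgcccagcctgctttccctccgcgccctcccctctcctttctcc
TUBB4B: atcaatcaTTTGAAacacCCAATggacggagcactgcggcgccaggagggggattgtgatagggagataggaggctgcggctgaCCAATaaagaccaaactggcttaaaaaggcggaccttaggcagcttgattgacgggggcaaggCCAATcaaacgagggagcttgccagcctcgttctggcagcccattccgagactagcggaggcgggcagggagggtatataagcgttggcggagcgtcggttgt
TUBA1B: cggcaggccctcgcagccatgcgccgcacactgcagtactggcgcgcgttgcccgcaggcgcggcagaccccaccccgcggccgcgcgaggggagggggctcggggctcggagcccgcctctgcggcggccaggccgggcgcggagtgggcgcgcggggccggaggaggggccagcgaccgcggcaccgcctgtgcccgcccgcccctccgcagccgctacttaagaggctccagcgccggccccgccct

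The motifs were CCAAT, the box bound by NF-Y; TTTGAA or TTCGAA, letters of the cell cycle homology region found in many mitotic gene promoters; and TTCCCGC or TTGGCGC, letters found in E2F sites. Both strands were searched over 300 bases, the 250 before and the 50 after each start, and the palindrome TTCGAA was counted once. No 2 of the motifs overlapped in the printed promoters. In STMN1, CCAAT began 75 bases and TTGGCGC 37 bases before the start. TUBB had a single CCAAT, 165 bases before the start. TUBB4B had CCAAT at 232, 166 and 103 bases and TTTGAA at 242 bases before the start, and TUBA1B had no match to any of the 3. The 10 members had 18 windows, since only 4 of them have a single one. Counting a gene if any of its windows matched, CCAAT was present in 7 of the 10 members, against 39.7% of 27305 genes with a window. The 7 were TUBA1A, TUBA1C, TUBB, TUBB3, TUBB4B, TUBB6 and STMN1. CCAAT was thus also present in TUBA1A and TUBA1C, which stayed close to control and whose promoters are not printed here. TTTGAA or TTCGAA was present in 4 members, TUBA1C, TUBB3, TUBB4B and MAP1B, against 19.5% of genes. TTCCCGC or TTGGCGC was present in 1 member, STMN1, against 11.0% of genes. Genes with several windows have more chances to match, and a match describes letters only.

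In the array annotation, 23 probe sets belonged to 1 member each and 2 more to a member together with another gene. The shared ones were 209372_x_at, for TUBB2A and TUBB2B, and 217714_x_at, for STMN1 and MIR3917. Of the 23, 22 passed the filter on low signal, the exception being a dim TUBA1B probe set (1565668_at, signals of 21.0, 12.4 and 13.7 with SETD8 siRNA 1, SETD8 siRNA 2 and the control siRNA). Of the 22, 16 carry the suffix _s_at, _x_at or _a_at, which marks probes shared between transcripts, and in the case of _x_at probes that may bind unrelated or similar sequences. All alpha-tubulin, TUBB3, TUBB4B and STMN1 probe sets that passed carry such a suffix, so the signal of a single isotype among them is uncertain. TUBB, TUBB2A, TUBB6 and MAP1B have at least 1 probe set without it. TUBA1B, TUBA1A and TUBA1C lie next to each other in the RefSeq gene order of chromosome 12, and TUBB2A lies next to TUBB2B on chromosome 6.

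On the arrays as a whole, the median signal was 45.3 with SETD8 siRNA 1, 44.9 with SETD8 siRNA 2 and 46.2 with the control siRNA. KMT5A signal on its brightest probe set was 45.9% of control with the first SETD8 siRNA and 62.2% with the other. Its other 3 probe sets were at 68.6%, 71.6% and 74.7% of control with SETD8 siRNA 1 and at 86.2%, 73.5% and 86.3% with SETD8 siRNA 2, so all 4 were below control and the size differed. Of 11 fibroblast markers, all passed the filter, and their summed signal was 179220 with SETD8 siRNA 1, 195345 with SETD8 siRNA 2 and 183364 with the control siRNA. Single markers differed more than this sum, which rests on the brightest probe sets: DCN had 7745.9, 22971.2 and 20075.4 and S100A4 had 2256.6, 3965.8 and 1237.3 in the same order.

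No member was 2-fold or more below control with both SETD8 siRNAs, where 3.23% of all genes were, and none was 2-fold or more above it with both, where 1.5% were. STMN1 came closest, with 37.8% of the control signal under SETD8 siRNA 1 and 50.4% under SETD8 siRNA 2. With SETD8 siRNA 1, 9 of the 10 members were below control by any amount (51.6% of all genes were), and 1 was at least 2-fold lower (7.75% of all genes). With SETD8 siRNA 2, 4 of 10 were below control (51.1% of all genes) and none was at least 2-fold lower (6.65%); 3 were below control with median scaling and 6 with quantile normalization. None was 2-fold or more above control with SETD8 siRNA 1 (5.48% of all genes) or with SETD8 siRNA 2 (4.46%). The median log2 fold change of the 10 members was -0.37 with SETD8 siRNA 1, beside -0.02 over all genes, and 0.08 with SETD8 siRNA 2, beside -0.01. The members' median with SETD8 siRNA 2 became -0.04 after quantile normalization. All members but STMN1 are in the highest quartile of signal. Genes of that quartile had medians of 0.05 with SETD8 siRNA 1 and 0.06 with SETD8 siRNA 2. Of these genes, 0.94% were 2-fold or more below control with both siRNAs and 1.04% above it, so counts of 0 are common among bright genes. Both comparisons use the same control array. The cells were measured in bulk, so fewer cells of a kind and less RNA per cell cannot be told apart.

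**Figure D1:**
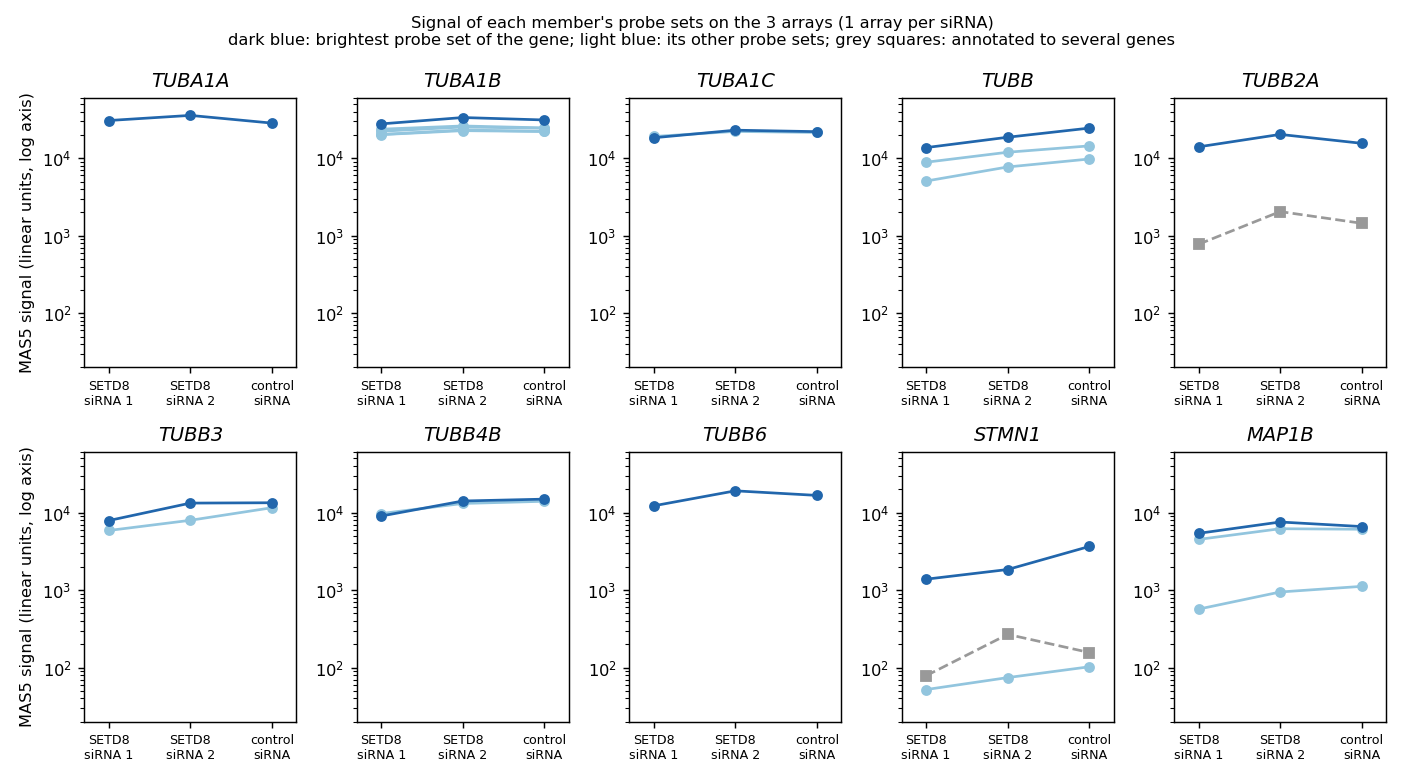
MAS5 signal (linear units on a log axis) of every member probe set that passed the filter, with 1 point for each of the 3 arrays, joined by a line per probe set. Lines dip on the left, at SETD8 siRNA 1, for all genes but TUBA1A, and TUBB, TUBB3, TUBB4B and STMN1 are below control with both siRNAs on every probe set of their own; levels of different probe sets cannot be compared.

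Alpha-tubulins stayed within 1.26-fold of control with either siRNA. TUBA1A, an isotype prominent in developing neurons, was measured by 1 probe set, with signals of 30670.1 with SETD8 siRNA 1, 35728.5 with SETD8 siRNA 2 and 28412.4 with the control siRNA (log2 fold changes of 0.11 and 0.33). It was the only member above control with both siRNAs, although after quantile normalization its log2 fold change with SETD8 siRNA 1 was 0.0012. TUBA1B, a broadly used isotype, had signals of 27747.7 with SETD8 siRNA 1, 33528.5 with SETD8 siRNA 2 and 31185.4 with the control siRNA on its brightest probe set. Over its 5 probe sets that passed, the mean log2 fold change was -0.12 ± 0.04 with SETD8 siRNA 1 and 0.07 ± 0.03 with SETD8 siRNA 2 (SD over 5 probe sets). The SETD8 siRNA 1 array was the lowest and the SETD8 siRNA 2 array the highest on each of the 5.

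TUBA1C, which is also broadly used, had signals of 18376.4 with SETD8 siRNA 1, 23031.9 with SETD8 siRNA 2 and 22046.0 with the control siRNA. Its 2 probe sets averaged -0.22 ± 0.06 and 0.05 ± 0.01 on the log2 scale (SD over 2 probe sets). The small positive values with SETD8 siRNA 2 depended on the scaling: after quantile normalization TUBA1B and TUBA1C each had -0.04 there. The probe sets that represent the 3 genes lay from the 99.6th percentile of all probe sets upward, and the 35728.5 of TUBA1A with SETD8 siRNA 2 was close in size to the highest signal on that array, 36667.4. Signals this high may be compressed, and the part of compression in the small alpha-tubulin differences was not tested.

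Beta-tubulins were lower with SETD8 siRNA 1 on all 9 of their probe sets, with log2 fold changes of the 5 genes between -0.84 and -0.15, and none reached 2-fold. With SETD8 siRNA 2 they ranged from -0.39 to 0.38. TUBB, the main beta-tubulin of dividing cells, stood lowest by brightest probe set. Its brightest probe set had 13723.0 with SETD8 siRNA 1, 18670.3 with SETD8 siRNA 2 and 24492.4 with the control siRNA, or 56.0% and 76.2% of control. Its other probe sets were at 61.5% and 52.0% of control with SETD8 siRNA 1 and at 82.8% and 79.0% with SETD8 siRNA 2. The control array was thus the highest and the SETD8 siRNA 1 array the lowest on all 3. The lowest value with SETD8 siRNA 1 came from the only TUBB probe set without a shared suffix, 212320_at, with signals of 5082.2, 7722.7 and 9778.3 in the same order. The mean over the 3 probe sets was -0.83 ± 0.12 with SETD8 siRNA 1 and -0.33 ± 0.06 with SETD8 siRNA 2 on the log2 scale (SD over 3 probe sets).

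TUBB4B, a widely expressed isotype also used in cilia, had signals of 9001.4 with SETD8 siRNA 1, 14078.1 with SETD8 siRNA 2 and 14875.2 with the control siRNA. Its 2 probe sets averaged -0.62 ± 0.14 and -0.09 ± 0.01 on the log2 scale (SD over 2 probe sets). TUBB4B was below control on both probe sets, at 60.5% and 69.5% with SETD8 siRNA 1 and at 94.6% and 93.7% of control with SETD8 siRNA 2. TUBB3, the beta-tubulin known as a marker of neurons, had signals of 7870.1 with SETD8 siRNA 1, 13224.7 with SETD8 siRNA 2 and 13360.8 with the control siRNA on its brighter probe set. Its other probe set gave 5860.1, 7933.7 and 11528.0 in that order. Both were lower with SETD8 siRNA 1 (log2 fold changes of -0.76 and -0.98), but with SETD8 siRNA 2 they gave -0.01 and -0.54, and the first of these turned to 0.03 with median scaling.

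TUBB2A and TUBB6 were lower with SETD8 siRNA 1 and higher with SETD8 siRNA 2. TUBB2A, an isotype abundant in brain and present in many other tissues, had signals of 14034.7 with SETD8 siRNA 1, 20309.2 with SETD8 siRNA 2 and 15579.8 with the control siRNA (90.1% and 130% of control). The probe set it shares with TUBB2B had 777.7, 2051.0 and 1448.4 in the same order, with the same ranking of the 3 arrays. TUBB6, an isotype found in many non-neuronal cells, had signals of 12194.1 with SETD8 siRNA 1, 19038.5 with SETD8 siRNA 2 and 16622.9 with the control siRNA (73.4% and 115% of control). Both genes were represented by probe sets without a shared suffix, and both kept the 2 directions under median scaling and quantile normalization. The other processing alternatives could hardly change them, since each gene has 1 probe set of its own, with a high signal.

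**Figure D2:**
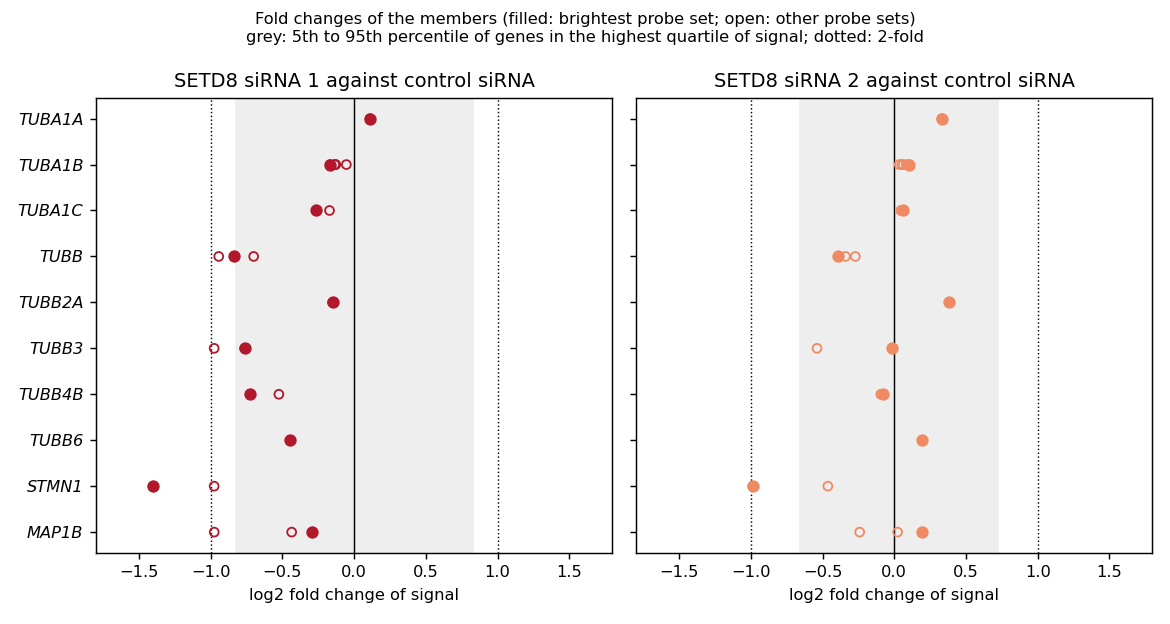
Log2 fold change of signal against the control siRNA for each probe set of the members, SETD8 siRNA 1 on the left and SETD8 siRNA 2 on the right, with the brightest probe set filled and the others open. Only STMN1 passes the dotted 2-fold line, with SETD8 siRNA 1, and the beta-tubulins TUBB, TUBB3 and TUBB4B lie further left with SETD8 siRNA 1 than with SETD8 siRNA 2; the grey band holds the 5th to 95th percentile of bright genes.

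STMN1 had signals of 1379.7 with SETD8 siRNA 1, 1839.6 with SETD8 siRNA 2 and 3647.8 with the control siRNA on its brightest probe set, 200783_s_at. The log2 fold changes were -1.40 and -0.99, a 2.64-fold and a 1.98-fold lower signal. A dimmer probe set of STMN1, 1552803_a_at, had 52.0, 74.2 and 102.3 in the same order (-0.98 and -0.46), so the 3 arrays ranked alike and the size differed. The probe set annotated to STMN1 and MIR3917 had 78.5 with SETD8 siRNA 1, 267.9 with SETD8 siRNA 2 and 156.3 with the control siRNA, and went the other way with SETD8 siRNA 2. As a guide to the size of single differences, the size of the log2 difference separating the SETD8 siRNA arrays had a 95th percentile of 1.25 among genes of the same signal quartile as STMN1 (683 to 2102) and of 1.14 in the highest quartile, which holds the other 9 members. STMN1 with SETD8 siRNA 1 was beyond that size on its brightest probe set, but not with its probe sets averaged (-1.19), where the dim one counts as much as the bright one. STMN1 with SETD8 siRNA 2 and the other members with either siRNA were not beyond it. The guide compares the SETD8 siRNAs with each other and not with control, and may hold differences between their effects. The share of all genes beyond it was not computed. STMN1 lies at the upper edge of its quartile, with a mean log2 signal of 11.036 below a limit of 11.0374. The size of its averaged value, -1.19, lies between the 1.14 and 1.25 of the 2 quartiles.

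MAP1B had signals of 5384.1 with SETD8 siRNA 1, 7541.5 with SETD8 siRNA 2 and 6589.5 with the control siRNA on its brightest probe set. A second probe set of MAP1B had 4495.9, 6178.3 and 6080.7, and a dimmer one had 567.1, 943.3 and 1115.2, in the same order. The SETD8 siRNA 1 array was the lowest on all 3, but the log2 fold changes of MAP1B spread from -0.98 to -0.29 with that siRNA. With SETD8 siRNA 2 they ran from -0.24 to 0.19, on either side of control. None of the 3 probe sets carries a shared suffix. Averaging them moved MAP1B to -0.57 with SETD8 siRNA 1 and -0.01 with SETD8 siRNA 2, so its direction with SETD8 siRNA 2 is not settled.

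The 2 SETD8 siRNA arrays can also be set against each other without the control array. Signal was higher with SETD8 siRNA 2 than with SETD8 siRNA 1 for all 10 members, and on all 22 of their own probe sets that passed the filter, where 49.8% of all genes and 48.2% of the genes in the highest signal quartile were higher. The difference in log2 signal, SETD8 siRNA 2 minus SETD8 siRNA 1, was 0.75 for TUBB3, 0.65 for TUBB4B and 0.64 for TUBB6, and at the other end 0.22 for TUBA1A, each on the brightest probe set. The other probe set of TUBB3 gave 0.44 and the mean of both 0.59, so TUBB3 does not stand above TUBB6 once its probe sets are averaged. Its median was 0.27 over the 3 alpha-tubulins and 0.64 over the 5 beta-tubulins, beside -0.0025 over all genes. The SETD8 siRNA 1 array was the lowest of the 3 for 9 members, all but TUBA1A, where 35.4% of all genes had it lowest. Each count of members was the same under median scaling and quantile normalization. The probe sets are not independent, since many of them can bind several tubulins.

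**Figure D3:**
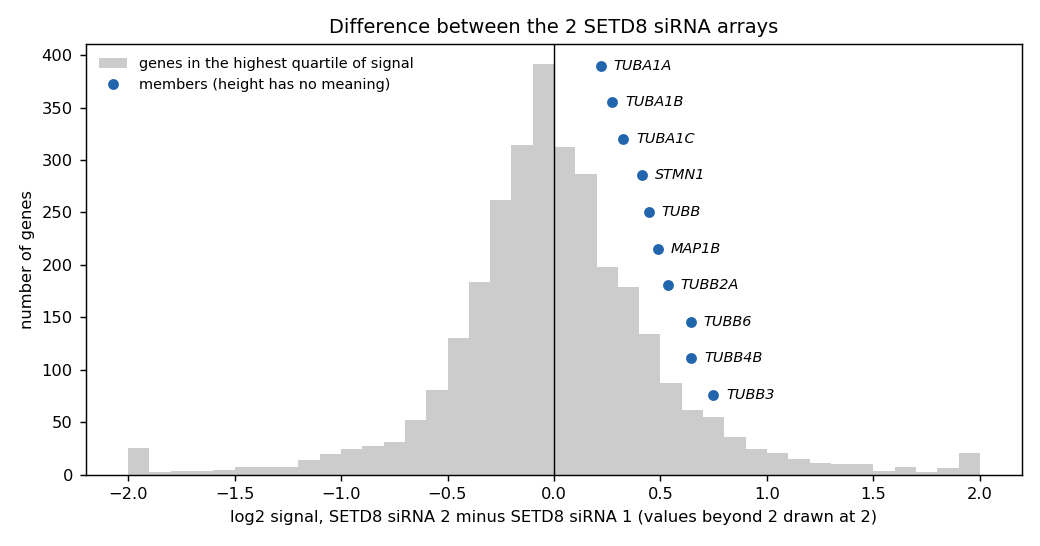
Difference in log2 signal between SETD8 siRNA 2 and SETD8 siRNA 1 (horizontal axis) for the genes in the highest quartile of signal (grey bars, number of genes) and for the 10 members (points, whose height has no meaning). All 10 points lie right of 0, between 0.22 for TUBA1A and 0.75 for the brighter TUBB3 probe set, inside the range of the grey bars.

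Other tubulin genes did not form a common pattern. Of 13 listed, 6 passed the filter. With both siRNAs, 1 of them was 2-fold or more below control (3.23% of all genes) and none above it (1.5%). That gene was TUBB2B, a neuronal isotype, with signals of 257.1 with SETD8 siRNA 1, 228.3 with SETD8 siRNA 2 and 775.5 with the control siRNA on its own, _x_at, probe set. The probe set that TUBB2B shares with TUBB2A, given above, ranked the arrays differently, so the direction of TUBB2B is not settled. TUBG1, the gamma-tubulin that nucleates microtubules, had log2 fold changes of -0.51 and -0.19, and its paralogue TUBG2 had 0.37 and 0.79. TUBA4A had 1277.7, 2753.5 and 2153.5 with SETD8 siRNA 1, SETD8 siRNA 2 and the control siRNA.

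The folding and autoregulation genes, which cover the prefoldin and CCT chaperones, the tubulin cofactors and TTC5, lay close to control. Of 21 listed, 19 passed the filter, none was at least 2-fold apart from control with either siRNA, and the list medians were 0.01 and -0.04 on the log2 scale. Over all genes, 7.75% were lower and 5.48% higher to that extent with SETD8 siRNA 1, and 6.65% and 4.46% with SETD8 siRNA 2. The largest shared differences were those of the prefoldin subunit PFDN2 (0.77 and 0.24), the cofactor regulator ARL2 (-0.75 and -0.21), the cofactor TBCD (-0.47 and -0.30) and TTC5 (0.51 and 0.18). CCT2, a subunit of the chaperonin that folds tubulin, had signals of 13167.1 with SETD8 siRNA 1, 11880.9 with SETD8 siRNA 2 and 12753.5 with the control siRNA.

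Among 16 lattice-binding and stabilising proteins that passed the filter (21 listed), 1 was at least 2-fold lower and 1 at least 2-fold higher with both siRNAs. Over all genes, the shares were 3.23% and 1.5%. The lower one was MTUS1, a microtubule-associated protein linked to growth control, with 75.7 with SETD8 siRNA 1, 36.4 with SETD8 siRNA 2 and 222.1 with the control siRNA. The higher one was MAP7, a cofactor of kinesin-1, with 94.1, 92.5 and 45.8. Both are dim genes, and neither call remained when probe sets were averaged. MAP1LC3B, first known as a light chain of MAP1 and better known from autophagosomes, had 7939.6, 7512.4 and 4204.1 (log2 fold changes of 0.92 and 0.84). MAP4, the main structural MAP of non-neuronal cells, had -0.26 and 0.23, and MAP1A, the paralogue of MAP1B, had -0.29 and 0.36. MAP4 and MAP1A were thus below control with SETD8 siRNA 1 and above it with SETD8 siRNA 2. MAPT, the tau protein of axons, had 0.91 and 0.24, and was also dim (signals of 94.0, 59.0 and 50.1). The list medians were -0.16 with SETD8 siRNA 1 and 0.23 with SETD8 siRNA 2.

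Of 11 plus-end tracking proteins that passed the filter (13 listed), 1 was at least 2-fold lower with both siRNAs (3.23% of all genes). It was GTSE1, a mitotic plus-end protein, with 461.6 with SETD8 siRNA 1, 597.6 with SETD8 siRNA 2 and 1870.1 with the control siRNA. The microtubule polymerase CKAP5 had 691.5, 758.8 and 1430.7, just past 2-fold with SETD8 siRNA 1 and just short of it with SETD8 siRNA 2. CLIP2 had log2 fold changes of 0.85 and 0.24, and CLASP1, which stabilises growing ends, had 0.17 and 0.42. MAPRE1, the end-binding protein EB1, had -0.28 and -0.03 on the log2 scale. Among 17 tubulin-modifying enzymes that passed (19 listed), none was at least 2-fold apart from control with both siRNAs (3.23% of all genes were lower and 1.5% higher). VASH1, which removes the final tyrosine of alpha-tubulin, had 210.8, 105.9 and 77.5 and MATCAP1, which does the same, had 158.8, 194.8 and 88.2, all dim. The glutamylases TTLL7 and TTLL11 had log2 fold changes of -0.95 and -0.35, and of 0.50 and 0.54. TTL, which puts the tyrosine back, had 3779.9, 3145.8 and 3146.1.

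Among other destabilising and severing proteins, 4 of 10 that passed the filter (15 listed) were 2-fold or more below control with both siRNAs (3.23% of all genes) and none was above it to that extent (1.5%). They were the mitotic depolymerase KIF2C, with 419.9 with SETD8 siRNA 1, 364.0 with SETD8 siRNA 2 and 2943.3 with the control siRNA, the kinesins KIF18A (-2.12 and -1.68) and KIF18B (-2.33 and -1.79), and fidgetin, FIGN (-1.40 and -1.18). Without the dimmer genes, at the 75th percentile of signal, 2 of the 4 were still counted. The 6 others included the fidgetin-like FIGNL1 (-0.87 and -1.49), past 2-fold with SETD8 siRNA 2, and the depolymerase KIF2A (-0.30 and -0.63). The severing enzymes KATNA1, KATNAL1 and SPAST had -0.19, 0.05 and 0.01 with SETD8 siRNA 1 and -0.28, 0.84 and -0.28 with SETD8 siRNA 2. The stathmin paralogue STMN3 had 0.11 and 0.79, a direction opposite to that of STMN1. Spindle proteins stood furthest from control, with 15 of 16 genes 2-fold or more below control with both siRNAs (3.23% of all genes) and medians of -2.83 and -2.58. The 4 with the largest shared difference were the spindle assembly protein DLGAP5 (-3.27 and -3.47), the spindle pole protein ASPM (-3.17 and -3.11), the chromokinesin KIF4A (-3.10 and -2.86) and the bundling protein NUSAP1 (-2.90 and -3.0). The other 11 were KIF11, PRC1, HMMR, TPX2, SPAG5, TACC3, RACGAP1, KIF23, CKAP2, KNSTRN and HAUS6, down to -1.0 and -1.04 for HAUS6, a subunit of augmin. Among these, PRC1, which bundles microtubules of the central spindle, had 760.0 with SETD8 siRNA 1, 997.2 with SETD8 siRNA 2 and 6344.9 with the control siRNA, and TPX2, which binds and nucleates spindle microtubules, had 232.6, 308.3 and 1788.5. The exception was NUMA1, which is also a nuclear protein of interphase cells, at -0.17 and -0.50. The log2 fold changes of STMN1, the lowest of the members, were thus smaller in size than the median of the spindle proteins.

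**Figure D4:**
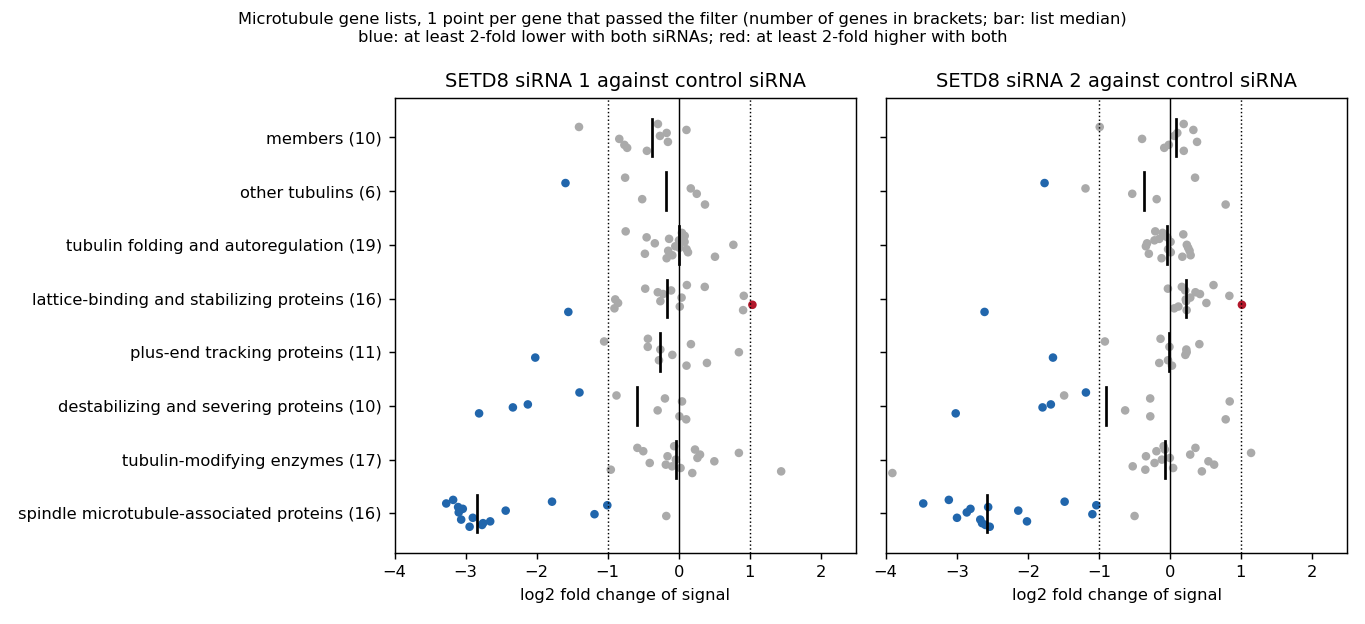
Log2 fold change of signal against the control siRNA for every gene of the microtubule lists that passed the filter (1 point per gene, black bar for the list median), SETD8 siRNA 1 on the left and SETD8 siRNA 2 on the right. Of the spindle proteins, 15 of 16 are blue, at least 2-fold lower with both siRNAs, where 3.23% of all genes were. None of the 10 members is blue or red.

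By the distance between the pairs of log2 fold changes, the genes most like STMN1 over the 2 comparisons were TGFBR3 (-1.42 and -1.0), DNAJC9 (-1.38 and -1.0) and ALDH1L1-AS2 (-1.40 and -1.03), at distances of 0.026, 0.028 and 0.040. The genes most like TUBB were ZNF594 (-0.83 and -0.41), DROSHA (-0.84 and -0.37) and EXOSC2 (-0.84 and -0.42), at 0.021, 0.023 and 0.024. Such likeness over 3 arrays is common: 74 genes lay within a distance of 0.25 of STMN1 and 314 within 0.25 of TUBB.

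TUBB3 and MAP1B are also expressed in neurons, so neuronal markers were read beside them. Of 10, 4 passed the filter, 2 were at or below the floor on all arrays (DCX and ELAVL3), and the summed signal of the 10 was 1692 with SETD8 siRNA 1, 1170 with SETD8 siRNA 2 and 1078 with the control siRNA. The sum follows its brightest probe set, that of SYT1, with 1446.0, 796.1 and 724.8; without SYT1 the 9 others summed to 246, 374 and 354. Of the 4 that passed, SYT1 and NEFM were highest and MAP2 and SNAP25 lowest with SETD8 siRNA 1, the array on which TUBB3 and MAP1B were also lowest. MAP2 had 78.0, 169.1 and 144.8 and SNAP25 had 33.8, 69.8 and 54.5 in the same order. Markers of other cell types had summed signals of 3216, 6550 and 3381 for 8 epithelial genes, 1593, 2205 and 1401 for 7 endothelial genes and 264, 255 and 241 for 6 leukocyte genes, with SETD8 siRNA 1, SETD8 siRNA 2 and the control siRNA in that order. The epithelial and endothelial sums follow 1 probe set each, those of KRT18 and TEK. Without KRT18, the 7 other epithelial genes summed to 253, 540 and 393. Without TEK, the 6 other endothelial genes summed to 318, 172 and 149, highest with SETD8 siRNA 1. Without CD79A, the 5 other leukocyte genes summed to 170, 188 and 102. The part of other cell types in the tubulin values was not tested.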

How the data were processed

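RNA of 3 IMR-90 cultures, 1 per siRNA, was hybridised to 1-colour Affymetrix arrays. The deposited intensity values are linear and number 1 per probe set. Per the submitters' processing notes, the authors used MAS5, whose version is not given in the sources used. MAS5 scales arrays to a common level, which would hide a shift of all genes.

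Probe sets were named through GEO's platform annotation, with symbols updated by gene number to RefSeq GRCh38.p14 (41037 of 41091 probe sets of 1 gene matched). The 1801 probe sets of several genes were left out of the gene table, and 11721 were not listed. Signals under 11.7, the 25th percentile, were set to it before log2. A gene took its probe set of highest mean log2 signal and passed the filter if that mean reached the median over probe sets, a signal of 42.0. A gene was counted if at least 2-fold apart from control with both siRNAs. With 1 array per siRNA, the precision is limited by the number of arrays and there is no p-value. The members and lists were chosen with earlier results of these data known. Named were all members, KMT5A, from each list up to 4 genes with the largest shared change and those 2-fold apart with both siRNAs, and the 3 genes most like STMN1 and TUBB. TUBA4A, CCT2, MAP4, MAP1A, MAPRE1, TTL, FIGNL1, KIF2A, KATNA1, KATNAL1, SPAST, STMN3, NUMA1 and the markers named were chosen after their values were seen. Counting was tested on simulated data with changes well beyond 2-fold, so calls near 2-fold were not tested. Python 3.11.15, numpy 2.4.6, pandas 2.3.3 and matplotlib 3.10.9 were used.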

Additional observations from a re-analysis of the deposited data

How the results depend on the processing

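The counts and medians of the 10 members were recomputed with median scaling, quantile normalization, a pseudocount of 16, the filter omitted or raised to the 75th percentile, probe sets averaged, shared suffixes left out, and probe sets of several genes kept. The count of members at least 2-fold lower with both siRNAs, 0 as reported, was 0 under all 8. It was 0 at a 3-fold threshold (1.55% of all genes) and 1, STMN1, at a 1.5-fold threshold (7.37% of all genes). The count of higher members was 0 throughout, also at 1.5-fold, where 4.59% of all genes were higher. Leaving out shared suffixes kept 4 members, without STMN1, with medians of -0.37 and 0.20. The changed filters and the keeping of probe sets of several genes left every member's values as they were. The count of 0 under these alternatives therefore repeats the reported one. The median with SETD8 siRNA 1 lay between -0.51 (mean of probe sets) and -0.34 (median scaling). With SETD8 siRNA 2 it lay between -0.04 and 0.20, changing sign only under quantile normalization. STMN1 had -1.19 and -0.73 with probe sets averaged. The other tubulins' count of 1 became 0 without shared suffixes or with probe sets of several genes kept, and that of the plus-end proteins became 0 without shared suffixes; the list of lattice-binding proteins lost its lower gene in 4 alternatives and its higher gene in 4, the 3-fold threshold among them. The spindle proteins' count of 15 lay between 11 (shared suffixes left out) and 15 under the alternatives, with 14 under median scaling, and was 12 at the 3-fold threshold. The cause of these moves was not tested. Over all genes, 398 were lower and 185 higher with both siRNAs as reported, against 737 and 460 without the filter and 204 and 80 at the 75th percentile, where more or fewer genes entered. No paired analysis was possible because each siRNA had 1 array and the labels give no replicate numbers. Leaving out a replicate was not possible either. The highest signals may be compressed and the lowest may be background.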
